A study of Mus musculus with 4 samples.

Results

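Cell surface adhesion molecules and syndecans were followed in bulk RNA sequencing of mouse primary myotubes, as a fixed set of 10 genes among the 53647 genes of the count tables. The set was taken by name and holds 6 adhesion receptors, Icam1, Vcam1, Ncam1, Alcam, Mcam and Cd44, and 4 syndecans, Sdc1, Sdc2, Sdc3 and Sdc4. The comparison was between 2 libraries of myotubes given recombinant EDA-A2 at 250 ng/mL for 24 h and 2 libraries of control myotubes, both wild type and both harvested 72 h after differentiation began. Myoblasts came from limb muscles of pups aged 2 to 3 days and were grown with 20% foetal bovine serum and 2.5 ng/mL basic FGF. They were then differentiated in 5% horse serum, and the culture is a model of muscle without vessels, nerve or circulating leukocytes. Neither the control's vehicle nor whether the libraries of a condition came from separate cultures is given in the labels, so p-values measure the spread between these libraries, which may be technical.

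Adhesion receptors hold cells to each other and to the matrix. VCAM-1 and ICAM-1 are immunoglobulin family receptors that bind integrins on leukocytes, and their genes are well known to respond to NFκB in endothelial cells. NCAM, ALCAM and MCAM are immunoglobulin family members that bind like molecules or matrix proteins on neighbouring cells, and CD44 is the main receptor for hyaluronan. Syndecans are transmembrane proteoglycans whose heparan sulfate chains capture growth factors and matrix proteins. VCAM-1, NCAM, syndecan-3 and syndecan-4 are used as surface markers of muscle satellite cells, and VCAM-1 with its integrin partner and M-cadherin take part in myoblast contact and fusion. EDA-A2 is a TNF family ligand whose receptor, EDA2R, signals to NFκB.

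Of the 10 genes, Vcam1 rose after EDA-A2, 8 did not pass the test, and Icam1 was too low to be tested. Vcam1 rose 1.44-fold (95% interval 1.26 to 1.65). The log2 fold changes of the 8 tested genes that were not called ran from -0.17 to 0.19. None of the genes was lower by edgeR's quasi-likelihood test, which also gave 0 lower genes at an unadjusted p-value under 0.05, as did the adjusted DESeq2 Wald test. Among all 15173 genes tested, 2.45% were higher and 2.13% lower, 371 and 323 genes, 4.57% in both directions together, and 1 call among 9 tested members is too few to set apart from that background. Under scaling to total counts these numbers were 485 and 194. The median log2 fold change of the 9 tested members was 0.02, against -0.00 over all genes tested.

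Promoter sequences are shown for Icam1 and Sdc4, because these were the only members whose window held an NFκB-type (κB) motif. The RefSeq table (GRCm38.p6) had a window for 7 of the 10 genes, and Vcam1, Ncam1 and Sdc2 had none. The 250 bases before each start were searched on both strands for GGNNNTTCC, which 15.7% of all 32841 windows of that length held. A longer κB form, found in 4.11% of them, was in no member's window. Capitals mark the κB matches.
Icam1: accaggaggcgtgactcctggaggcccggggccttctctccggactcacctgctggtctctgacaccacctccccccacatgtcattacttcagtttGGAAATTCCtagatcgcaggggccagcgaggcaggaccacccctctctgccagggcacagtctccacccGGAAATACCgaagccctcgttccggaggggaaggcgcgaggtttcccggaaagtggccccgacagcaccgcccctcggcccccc
Sdc4: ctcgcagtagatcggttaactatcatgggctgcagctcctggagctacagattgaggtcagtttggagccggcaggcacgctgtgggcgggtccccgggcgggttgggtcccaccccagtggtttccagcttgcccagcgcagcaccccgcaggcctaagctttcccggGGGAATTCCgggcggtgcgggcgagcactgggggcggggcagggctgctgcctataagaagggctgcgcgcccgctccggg
The Icam1 window is chr9:21015690-21015939 on the plus strand, and the Sdc4 window is chr2:164443189-164443438 on the minus strand. In Icam1 the first match, GGAAATTCC, begins 153 bases before the start and matches on both strands, and another, GGAAATACC, begins 84 bases before it on the minus strand. The Sdc4 match, GGGAATTCC, begins 81 bases before the start. No member's window held an AP-1 motif (TGANTCA, in 6.75% of all windows), and 4 of the 7 held an E-box (CANNTG, in 66.2% of all windows). A match describes these letters only.

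Per length of transcript, Sdc4 and Ncam1 were the most abundant of the genes and Icam1 was the lowest. Levels between genes are given as RPKM, which are counts divided by the length of all annotated exons and by the TMM-scaled library size. Over the 4 libraries Sdc4 lay at 109.6 to 127.0 RPKM and Ncam1 at 108.4 to 126.2, ranges that overlap, and 98.0% of all tested genes had a lower mean level than either. Sdc3 lay at 32.3 to 33.4 RPKM, Sdc1 at 29.2 to 32.8 and Cd44 at 26.2 to 29.7, so each overlapped its neighbour in this order. Sdc2 was below these at 17.3 to 20.6 RPKM. Alcam (6.55 to 8.01), Mcam (5.72 to 7.49) and Vcam1 (4.47 to 7.36) overlapped one another, and Icam1 reached only 0.0140 to 0.113 RPKM.

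**Figure D1:**
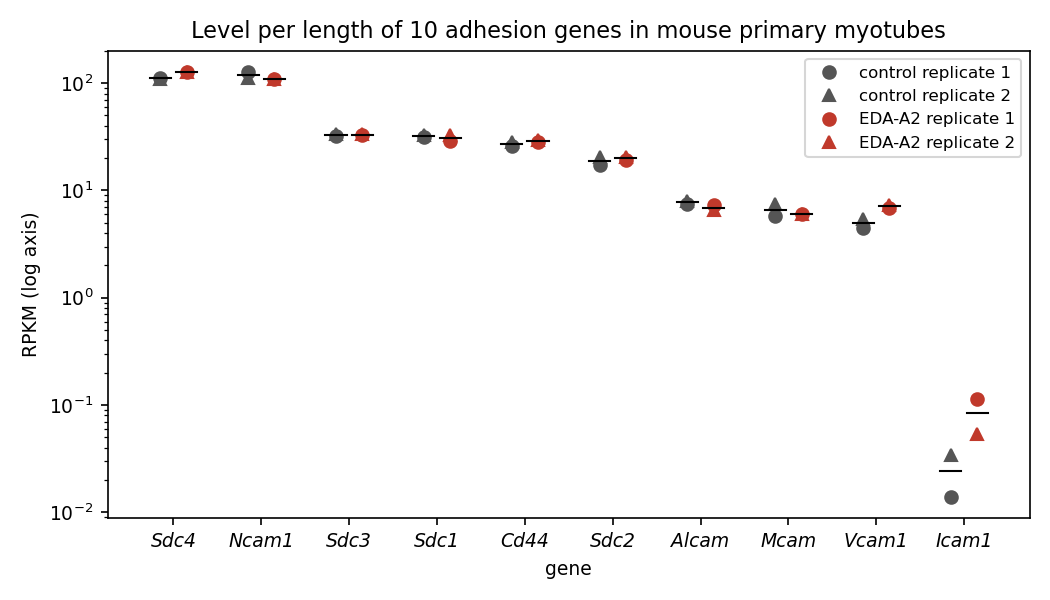
Level per length of each gene (RPKM, log axis) in every library, with control in grey and EDA-A2 in red, circles for replicate 1, triangles for replicate 2 and a line at the mean of each condition. Sdc4 and Ncam1 sit above 100 RPKM, most genes lie between 4 and 34, and Icam1 lies near 0.1 or lower.

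The order depends in part on the length used. With the longest annotated transcript in place of all exons, Ncam1 came first at a mean of 152.5 RPKM and Sdc4 second at 122.4. Vcam1 then moved from ninth to seventh place, at 13.2 RPKM against 8.66 for Alcam and 6.83 for Mcam. Within the syndecan family, Sdc4 made up 55.8% to 60.9% of the summed RPKM, Sdc3 15.7% to 17.0%, Sdc1 13.99% to 16.7% and Sdc2 8.94% to 10.5% across the 4 libraries. By the longest transcript Sdc4 still held the largest share, 49.2% to 54.4%.

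Vcam1 encodes the receptor for integrins α4β1 and α9β1 and lies on chromosome 3 from 115903598 to 115923355 of GRCm39 (ENSMUSG00000027962). In control myotubes it had 1191 and 1428 normalised counts, and in treated myotubes 1816 and 1961. Both treated libraries were above both controls, and the controls differed from each other by more than the treated libraries did. The means were 1309 ± 167 and 1888 ± 102 (SD, n = 2 each). On the log2 scale the difference was 0.53 with a 95% interval from 0.34 to 0.72 and a standard error of 0.09, and edgeR's test gave an adjusted p of 0.00250 (Benjamini-Hochberg). By p-value it ranked 200th among all tested genes, and by log2 fold change 191st among the 371 that rose.

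The direction of Vcam1 held in every setting tried, and its call did not. With no filter beyond 1 count, which took 25545 genes into the test, the log2 fold change was 0.52 and the adjusted p was 0.149 by edgeR. Without control replicate 1 it was 0.40 (adjusted p = 0.288) and without control replicate 2 it was 0.67 (adjusted p = 0.183), by the same edgeR test, in which the lone control library is assumed to vary like the treated ones. In both of these fits edgeR called 0 of all genes, with 2179 and 2448 genes at an unadjusted p-value under 0.05. Without EDA-A2 replicate 1 or 2 the adjusted p was 0.000242 and 0.0236 by edgeR.

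Icam1 encodes the counter-receptor of the β2 integrins LFA-1 and Mac-1 and lies on chromosome 9 from 20926672 to 20940113 (ENSMUSG00000037405). Its raw counts were 2 and 5 without EDA-A2 and 17 and 8 with it. Both treated libraries had more counts than both controls, but the gene did not pass the filter on low counts, and the upper control and lower treated library lie 3 counts apart. The summed counts were 25 against 7, and their ratio after scaling by library size was 3.44 (95% exact interval 1.45 to 9.42, counting error only). In the fit with no filter the log2 fold change of Icam1 was 1.74, with a p-value of 0.0401 before adjustment and 0.519 after it by edgeR. Icam1 passed the filter in some fits with a library left out. Its estimate was 2.18 without EDA-A2 replicate 2, 1.26 without control replicate 1 and 2.50 without control replicate 2. An antisense long noncoding RNA gene, Gm47079, shares 511 exon bases with Icam1 and had 1, 6, 11 and 19 counts in the same library order. The paper names a stranded mRNA library kit. The strand option of the counting is not given in the sources used here, so reads of Icam1 and Gm47079 cannot be told apart with certainty.

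Ncam1, Alcam and Mcam, the genes of cell-to-cell contact, gave negative estimates that did not pass the test. Ncam1 (chromosome 9 from 49413436 to 49710357) had 32871 and 28939 normalised counts without EDA-A2 and 28231 and 28507 with it. The treated libraries were below both controls, but only narrowly below control replicate 2. Its log2 fold change was -0.12, with a 95% interval from -0.28 to 0.04 (adjusted p = 0.489, edgeR). Without control replicate 1 the estimate for Ncam1 was -0.03, and without control replicate 2 it was -0.21.

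Alcam, which encodes a ligand of the T cell receptor CD6 and also binds itself (chromosome 16 from 52069359 to 52274437), had 1586 and 1689 normalised counts in control and 1535 and 1381 after EDA-A2. Its log2 fold change was -0.17 (-0.34 to 0.00, adjusted p = 0.335, edgeR), and the conditions did not overlap. It was -0.09 without EDA-A2 replicate 2 and -0.25 without EDA-A2 replicate 1. Mcam, which encodes a receptor for laminins (chromosome 9 from 44045504 to 44054025), had 612 and 801 normalised counts in control and 647 and 645 after EDA-A2. The treated values lay between the controls, and the log2 fold change was -0.13 (-0.37 to 0.12, adjusted p = 0.683, edgeR). Without control replicate 2 the estimate for Mcam was 0.08.

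Cd44 (chromosome 2 from 102641486 to 102732010) had 5254 and 5714 normalised counts without EDA-A2 and 5627 and 5961 with it, and the conditions overlapped. The log2 fold change of Cd44 was 0.08 (-0.07 to 0.23, adjusted p = 0.683, edgeR), and it ran from 0.02 to 0.14 with each library left out in turn. CD44 is made in many splice forms, and counts per gene do not separate them.

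None of the 4 syndecan genes passed the test. Sdc4, whose protein sits in focal adhesions and signals through protein kinase C alpha (chromosome 2 from 164266025 to 164285807), had 9622 and 9402 normalised counts in control and 10895 and 10799 after EDA-A2. Its libraries did not overlap between conditions and its replicates were close, with an SD of 155 in control and 67.9 after treatment. The log2 fold change of Sdc4 was 0.19 (standard error 0.07, 95% interval 0.05 to 0.33). The p-value was 0.0114 before adjustment and 0.138 after it by edgeR's quasi-likelihood test. Under scaling to total counts Sdc4 was called, at 0.24 on the log2 scale (adjusted p = 0.0424, edgeR). The adjusted p lay between 0.105 and 0.676 in the other settings tried.

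**Figure D2:**
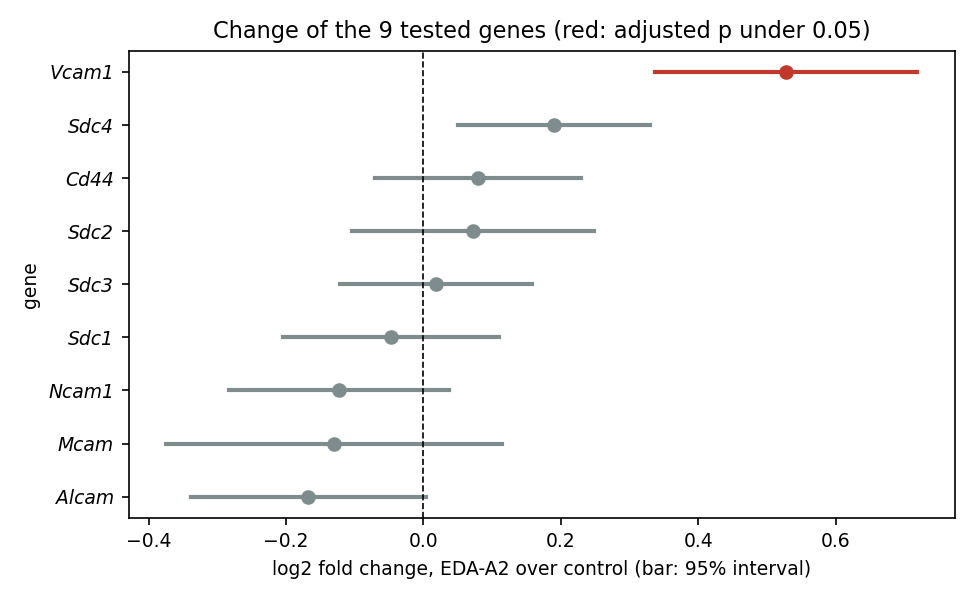
Log2 fold change of the 9 tested genes, EDA-A2 over control, with 95% intervals that are not adjusted for the number of genes (Icam1 is not shown because it was not tested). The Vcam1 interval runs from 0.34 to 0.72, that of Sdc4 from 0.05 to 0.33, and the other intervals include 0.

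The remaining syndecans overlapped between conditions. Sdc1, the main syndecan of epithelia and plasma cells (chromosome 12 from 8820854 to 8843725), had 3868 and 4053 normalised counts in control and 3605 and 4058 after EDA-A2. Its log2 fold change was -0.05 (-0.21 to 0.11), and it was 0.01 under scaling to total counts and 0.04 without EDA-A2 replicate 1. Sdc2, a syndecan of mesenchymal cells (chromosome 15 from 32920699 to 33035213), had 3571 and 4269 normalised counts in control and 4000 and 4242 after treatment. Its log2 fold change was 0.07 (-0.10 to 0.25), and -0.05 without control replicate 1.

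Sdc3, the syndecan of nerve and muscle precursors (chromosome 4 from 130519826 to 130556217), had 8448 and 8705 normalised counts in control and 8623 and 8746 after EDA-A2. It changed least of the syndecans between conditions, with a log2 fold change of 0.02 (-0.12 to 0.16), and -0.00 without control replicate 1. Across the 8 genes that were tested and not called, the 95% intervals reached from -0.37 to 0.33 on the log2 scale.

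Whether libraries of the conditions overlapped was read against all genes. Among the 9 tested members, Vcam1 and Sdc4 were higher in both treated libraries than in both controls, Ncam1 and Alcam were lower, and 5 overlapped. Over all tested genes 22.8% were higher and 22.2% lower in this sense, so 2 of 9 in each direction is near the background.

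**Figure D3:**
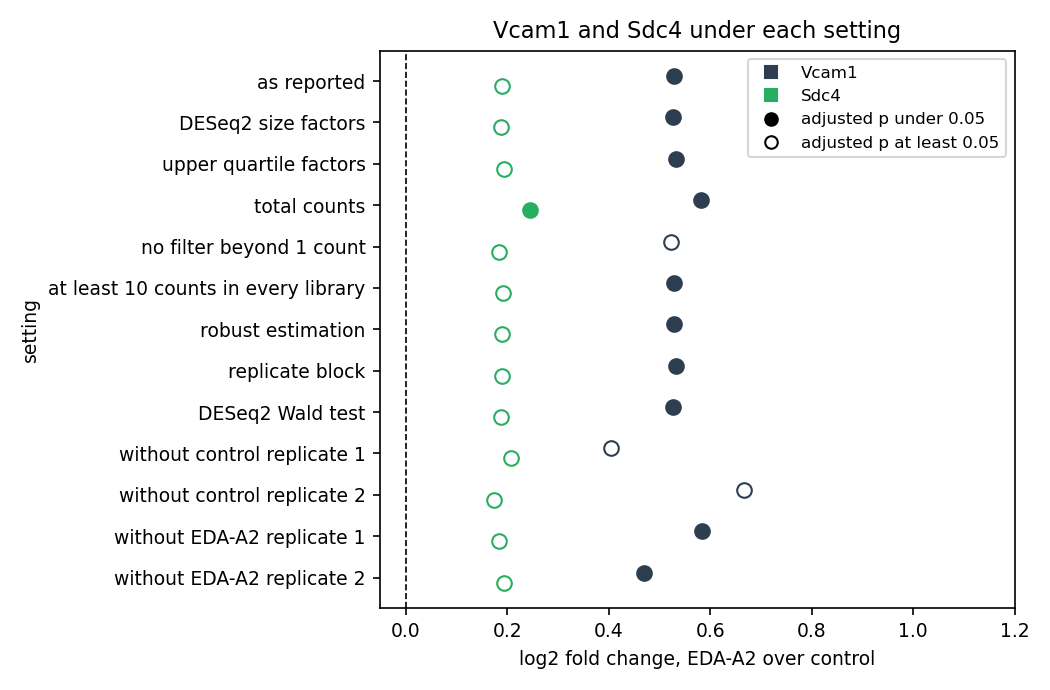
Log2 fold change of Vcam1 and Sdc4 (EDA-A2 over control) under each setting tried, filled where the adjusted p was under 0.05 and open where it was not. Vcam1 ranges from 0.40 to 0.67 and is open with no filter and without either control library. Sdc4 ranges from 0.17 to 0.24 and is filled under total counts only.

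Of 8 NFκB feedback genes 7 rose, against 2.45% of all genes tested, and the median log2 fold change of the 8 was 1.27. This list was chosen with earlier results of these data known, so it is not an independent check of the treatment. As examples, Nfkbia, which encodes the inhibitor IκBα, had 1371 and 1271 normalised counts in control and 3550 and 3558 after EDA-A2. Nfkb1 was the gene not called (log2 fold change 0.10, adjusted p = 0.639, edgeR).

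The other genes of adhesion and heparan sulfate biology were taken from 8 lists with 188 genes, of which 150 were tested. After EDA-A2 4 of them rose and 9 fell, 8.67% of those tested, against 4.57% of all genes. Their median log2 fold change was -0.03. In the fit with no filter 3 rose and 1 fell, and those were Mmp9, Hpse, St8sia4 and Spp1. Without either control library none was called, as for all genes.

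The enzymes that add polysialic acid to NCAM moved in opposite directions, while Ncam1 was not called. St8sia4, the polysialyltransferase that dominates in adult tissue, had 577 and 611 normalised counts in control and 973 and 926 after EDA-A2. It rose by 0.68 ± 0.09 (SE) on the log2 scale, with an adjusted p of 0.000304 by edgeR. St8sia2, which dominates during development, fell from 4663 and 3771 normalised counts in control to 3032 and 2711 after EDA-A2 (-0.55 ± 0.09 (SE) on the log2 scale, adjusted p = 0.00223, edgeR). The libraries of the conditions overlapped for neither enzyme. Per length, St8sia2 remained the more abundant, at 18.2 and 16.3 RPKM after treatment against 1.63 and 1.55 for St8sia4. St8sia2 was not called with no filter (adjusted p = 0.170, edgeR).

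Ligands and counter-receptors of the members held further changes. Spp1, which encodes osteopontin, a ligand of CD44 and of integrins, fell from 47091 and 48306 normalised counts in control to 34858 and 35149 after EDA-A2 (log2 fold change -0.45, adjusted p = 0.00108, edgeR). Gfra1, a GDNF co-receptor that can act with NCAM, fell by 0.39 on the log2 scale (adjusted p = 0.0396, edgeR), a call lost under total counts, in DESeq2, with no filter and without any of the libraries. The integrin chains that bind VCAM-1 did not pass the test. Their log2 fold changes were 0.09 for Itga4, -0.09 for Itgb1 and -0.44 for Itga9, with adjusted p-values of 0.767, 0.638 and 0.0694 by edgeR. The estimate for Itga9 was -0.16 without control replicate 1 and -0.67 without control replicate 2. The β2 integrin partners of ICAM-1 were low: Itgb2 had 26 to 32 counts per library, Itgal had 1 to 8, and Cd6, the partner of ALCAM, had 0 to 3. In all, 1 of the 19 tested genes of this list rose and 3 fell, and over all tested genes 2.45% rose and 2.13% fell. The list also holds the polysialyltransferases above: the gene that rose was St8sia4, and those that fell were Spp1, Gfra1 and St8sia2.

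Among genes that build and trim heparan sulfate, 1 of 29 tested rose and none fell by edgeR (all tested genes: 2.45% and 2.13%). That gene was Hpse, which encodes heparanase, the enzyme that cuts the chains carried by syndecans. Its normalised counts were 184 and 233 in control and 435 and 462 after EDA-A2, a rise of 1.10 ± 0.13 (SE) on the log2 scale (adjusted p = 0.000131, edgeR). The treated libraries lay well above the controls, and the call held in every setting with all 4 libraries. The chain polymerases Ext1 and Ext2 gave log2 fold changes of -0.02 and 0.02. Hs3st3b1, a sulfotransferase, gave -0.61 (adjusted p = 0.0856, edgeR). Of 16 other proteoglycan genes tested, none was called by edgeR, and 5 had an unadjusted p-value under 0.05. Over all 15173 genes tested, 2372 had such a p-value by the same test. The 5 proteoglycan genes were Nrp2 (-0.21), Gpc4 (-0.22), Nrp1 (-0.20), Cspg4 (-0.86) and Dcn (0.48), as log2 fold changes. Estimates were positive for 3 of the 16, and the median was -0.07. The glypican Gpc1 and the basement membrane proteoglycan Hspg2 were at -0.04 and -0.01.

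**Figure D4:**
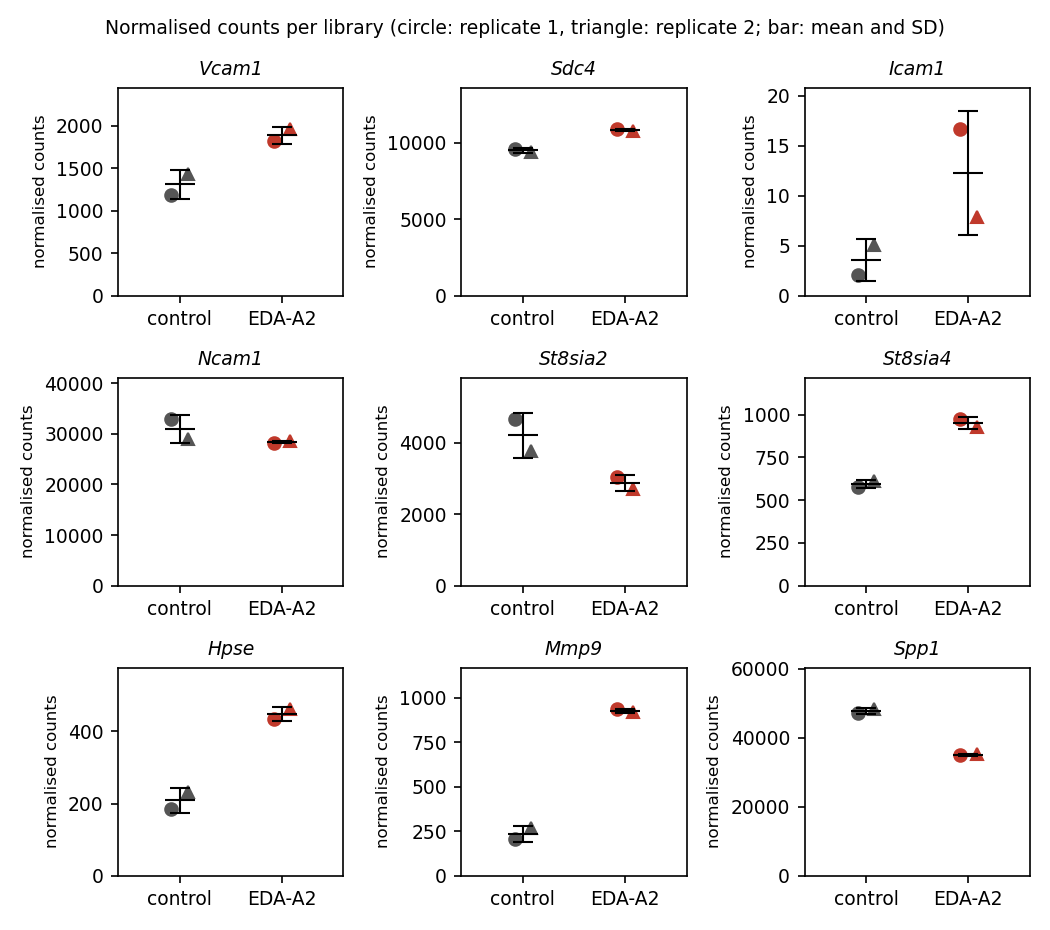
Normalised counts per library in control (grey) and EDA-A2 (red) myotubes for 4 of the members, for the polysialyltransferases St8sia2 and St8sia4, and for Hpse, Mmp9 and Spp1, with bars for the mean and SD of 2 libraries and every axis starting at 0. Hpse, Mmp9 and St8sia4 are higher in both treated libraries, St8sia2 and Spp1 are lower, and Icam1 stays below 17 normalised counts.

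A list of proteases that can shed ectodomains, with TIMP inhibitors and Rhbdf genes, held 1 gene that rose and 1 that fell among 20 tested. Of all tested genes 2.45% rose and 2.13% fell. Mmp9, a gelatinase that can shed syndecans and cut CD44, had 205 and 268 normalised counts in control and 937 and 920 after EDA-A2. The log2 fold change of Mmp9 was 1.97 (adjusted p = 1.16e-07, edgeR). Adamts1, a matrix protease, had 856 and 829 normalised counts in control and 610 and 592 after treatment (log2 fold change -0.49, adjusted p = 0.00412, edgeR). The main sheddases Adam10 and Adam17 were not called, with log2 fold changes of 0.06 and 0.11.

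Among other immunoglobulin family adhesion genes, 2 of 24 tested fell and none rose, where 2.13% of all tested genes fell and 2.45% rose. Bcam, which encodes a laminin receptor, had 5173 and 4140 normalised counts in control and 3311 and 3445 after EDA-A2 (log2 fold change -0.46, adjusted p = 0.00649, edgeR). Cadm4, a cell adhesion molecule, had 1381 and 1192 normalised counts in control and 936 and 893 after treatment (log2 fold change -0.49). Both genes were lower in each treated library, and neither was called with no filter (adjusted p = 0.233 and 0.135, edgeR). Cdon, a co-receptor that promotes myogenesis, gave -0.30 (adjusted p = 0.0722, edgeR), and it was called by the DESeq2 Wald test (adjusted p = 0.0483). Its estimate was -0.13 without control replicate 1 and -0.45 without control replicate 2.

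A list of cadherins, catenins, selectins and sialomucins, with Epcam and Prom1, held 1 gene that rose and 2 that fell of 15 tested. Over all tested genes the shares were 2.45% and 2.13%. Cdh15, the M-cadherin of muscle, had 3950 and 3351 normalised counts in control and 2721 and 2566 after EDA-A2 (log2 fold change -0.47, adjusted p = 0.00318, edgeR). Cd24a, a sialomucin that binds P-selectin, fell by 0.43 on the log2 scale, and Cd34, a sialomucin of precursor and endothelial cells, rose by 0.42. With no filter none of these 3 was called, with adjusted p-values of 0.149, 0.125 and 0.318 by edgeR. The N-cadherin gene Cdh2 gave -0.21 (adjusted p = 0.199, edgeR).

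Of 18 cytoplasmic partners tested, 1 fell and none rose, against 2.13% and 2.45% of all tested genes. That gene was Actn4, an alpha-actinin, with a log2 fold change of -0.28 (adjusted p = 0.0235, edgeR), a call lost under total counts, with no filter and without any 1 library. Sdcbp, which encodes syntenin, the adaptor of syndecan tails, was at -0.04. No gene of hyaluronan metabolism was called by edgeR among 9 tested, and the synthase Has2 was at 0.16. An unadjusted p-value under 0.05 was found by edgeR for 1 of them, Stab1, and for 2372 of all 15173 genes tested.

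Depth was 29444155 to 29746863 counts on genes per library, and a count of 0 allows up to 3 counts, or 0.101 to 0.102 CPM. Markers of cells that carry VCAM-1 in tissue were examined beside these results, as summed RPKM per library. The 7 endothelial markers summed to 0.202 to 0.246 in control and 0.236 to 0.241 after EDA-A2, with Emcn at 0 counts throughout. The 7 macrophage markers summed to 1.76 to 2.06 in control and 2.41 to 2.83 after treatment. Of them 3 were tested, all with positive estimates (median log2 fold change 0.92), and none was called. Ptprc and Adgre1 had at most 2 counts. The 7 mural cell markers summed to 14.05 to 14.6 in control and 12.4 to 13.6 after EDA-A2, and 1 of 5 tested, Pdgfrb, fell. Fibroblast markers summed to 180 to 182 and then 166 to 170, with none of 5 tested called and with Lum and Thy1 at 0 counts. Myoblast markers summed to 278 to 302 and then 274 to 280, and 1 of 5, Cdh15, fell. Myotube markers summed to 7000 to 7356 and then 5086 to 5297, 4 of 7 fell, and none rose. The 7 markers of dividing cells were not called, no lymphocyte marker was high enough to test, and of the glial and neuronal markers Tubb3 rose while Sox10 and Rbfox3 were at 0 counts. Over all tested genes 2.45% rose and 2.13% fell. The part of these markers in the results was not tested, and in bulk RNA fewer cells of a type and less RNA per cell cannot be told apart.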

How the data were processed

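Per the paper's methods and the labels, the authors checked reads with FastQC 0.11.9 and MultiQC 1.12, trimmed them with Trim Galore 0.6.5, mapped them to GRCm39 with STAR 2.7.3a and counted pairs per gene with HTSeq 0.11.1. The annotation release and strand option are not given in the sources used here. The deposited values are whole-number, unnormalised counts for each Ensembl gene in each library. HTSeq's summary lines were left out: 6.68% to 7.40% of pairs overlapped no counted feature, 0.946% to 0.986% were ambiguous and 4.56% to 4.76% did not map uniquely.

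Symbols, exon lengths and gene coordinates came from GENCODE vM39 (GRCm39), which matched 52610 of 53647 genes. The fit used edgeR 4.0.16 under R 4.3.3 (TMM scaling, filterByExpr with a minimum count of 10 and total of 15, quasi-likelihood test, condition only), with Benjamini-Hochberg adjustment over all 15173 genes tested and a threshold of 0.05. No differential expression test for these counts is named in the paper. The standard error was taken as log2 fold change over root F, and intervals use the t quantile on the fit's degrees of freedom. Normalised counts put each library on the average effective (TMM) size. DESeq2 1.42.0 was an alternative. The steps were checked on simulated counts.

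The 40 partner genes followed over the settings were the 5 tested genes of lowest p-value in each of the 8 partner lists. Not all of them are named in the text. Also named were all members, counter-receptors or enzymes of a member, genes beside a member, and further genes of the lists as examples. The members, lists and tests were chosen with earlier results of these data known.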

Additional observations from a re-analysis of the deposited data

How the results depend on the processing

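Depth was nearly equal between libraries. Limits are the 2 libraries per condition and the few counts of Icam1. Every member except Vcam1 and Sdc4 stayed uncalled in each setting in which it was tested. With no filter beyond 1 count, 64 genes were higher and 22 lower, 0 members were higher by edgeR (2264 genes had an unadjusted p-value under 0.05), the log2 fold change of Vcam1 was 0.52 without a call, and 1 gene of the 8 partner lists was lower. Under total counts 194 genes were lower, 2 members were higher, Sdc4 was called at 0.24 and Sdc1 changed sign to 0.0064. At an adjusted p under 0.01, 204 genes were higher and 135 lower. With each library left out in turn, genes higher ranged from 0 to 238 and genes lower from 0 to 170, members higher from 0 to 1, partner genes higher from 0 to 4 and partner genes lower from 0 to 6, and the zeros come from the fits without a control library. Over the 4 fits that each left out a library, log2 fold changes ranged from 0.40 to 0.67 for Vcam1, -0.21 to -0.03 for Ncam1, -0.25 to -0.09 for Alcam, 0.02 to 0.14 for Cd44, -0.31 to 0.078 for Mcam, -0.14 to 0.036 for Sdc1, -0.049 to 0.21 for Sdc2, -0.0018 to 0.041 for Sdc3 and -0.21 to 0.057 for Cemip2, a hyaluronidase gene. Why the sign changed for Mcam, Sdc1, Sdc2, Sdc3 and Cemip2 was not tested.

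The replicate numbers of the labels are shared between conditions but are not said to mark a batch, and deviations of same-numbered libraries correlated at 0.06 over 15173 genes. With a replicate block 537 genes were higher and 529 lower, 7 partner genes were higher and 13 lower, and Vcam1 was the member called, with a log2 fold change of 0.53. Itga9 and Cdon were called with the block, at -0.42 and -0.29 (adjusted p = 0.0095 and 0.0170, edgeR). With the longest transcript as length, mean RPKM was 13.2 for Vcam1, 152.5 for Ncam1, 8.66 for Alcam, 33.7 for Cd44, 39.1 for Sdc1, 35.1 for Sdc2, 38.6 for Sdc3 and 122.4 for Sdc4, against 6.01, 113.8, 7.34, 28.1, 31.5, 19.4, 33.0 and 118.6 with all exons. For the 40 partner genes of lowest p-value in their lists, 456 of 518 settings kept direction and call, 50 lost the call, 11 gained it and 1 changed sign.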

Other observations

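The protein-coding genes next to each member on its chromosome were also read from the fit. Of these 20 neighbours 17 were tested, none rose and 1 fell, where 2.45% of all tested genes rose and 2.13% fell. That gene was Sema5a, which encodes a semaphorin and lies 224211 bases from Sdc2, with 1019 and 1048 counts in control and 718 and 801 after EDA-A2 (log2 fold change -0.50, adjusted p = 0.00331, edgeR). Beside Vcam1, Extl2 gave a log2 fold change of 0.10, and beside Sdc4, Sys1 gave -0.05. Icam4, which lies 555 bases from Icam1, had 12 and 7 counts in control and the same numbers, 12 and 7, after EDA-A2. Icam5, the telencephalin gene of the same family, had 23 and 20 counts in control and 48 and 32 after treatment (log2 fold change 0.84, adjusted p = 0.227, edgeR).

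In 7 of the 10 members, exon bases are shared with an antisense noncoding gene of the annotation. The antisense genes that are in the count tables had at most 37 counts in a library, and Icam1 was the member whose own counts were of that order.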
